A study of Mus musculus with 2 samples.

Results

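The L1-related rows of the deposited repeat tables are 5 of 952 repeat types. Rows were chosen by name alone, as those that contain HAL1 or begin with L1 or Lx. The 5 rows are MusHAL1, HAL1, HAL1-3A_ME, HAL1-2a_MD and HAL1b. No analysed row begins with L1 or Lx, and of 79 common L1, Lx and HAL1 subfamily names looked for one by one, among them L1Md_A, L1Md_T, L1Md_F2, L1_Mus1, Lx8 and HAL1ME, 0 were found. L1 elements under their own names are therefore not analysed here, and nothing below is a measurement of a named L1 subfamily.

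LINE-1 (L1) elements are retrotransposons without long terminal repeats (LTRs), which copy themselves through RNA with 2 proteins that they encode. HAL1 stands for half-L1, a group derived from L1 that kept the first of those reading frames, for an RNA-binding protein, and lost the second, for the reverse transcriptase. HAL1 families occur across mammals, and HAL1 and HAL1b are old families whose copies no longer move. L1 sequence as a whole is rich in A and T, and it is concentrated in gene-poor chromatin.

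Reads came from 1 chromatin immunoprecipitation (ChIP) sample and 1 input sample of wild-type embryonic stem (ES) cells from 129S1/SvImJ mice. The antibody recognises the histone variant H3.3 phosphorylated at serine 31 (H3.3S31ph), a mark of mitotic chromatin, and input is the same kind of chromatin sequenced without antibody. Both groups share the treatment: cells were kept for 12 hours in 9 µM RO-3306, a CDK1 inhibitor, then washed and collected 11 hours later as mitotic cells. The labels name no other genotype and no untreated cells, so no value says what is particular to mitosis. There was 1 sample a group, sequenced in 2 lanes. The lanes repeat the sequencing of the same libraries and are not replicates, so no difference below has a replicate check, and each interval is a 95% interval of counting error only.

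Summed over lanes, the tables held 12235477 reads of the ChIP and 8856751 of the input. A ratio below is the percentage of ChIP repeat reads that a row held divided by its percentage of input repeat reads, so 1 means the same share in both. Of the 952 repeat types, 704 had at least 100 input reads, and all 5 HAL1 rows were among them. The median repeat of those 704 had a ratio of 0.805, and shares add up to a fixed total in each library. Values are therefore also given relative to this median repeat.

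MusHAL1 stood apart from the other HAL1 rows in abundance. It had 297031 input reads in lane 1 and 292473 in lane 2, and 292259 and 284195 ChIP reads. This made it the repeat with rank 2 by input reads, after the major satellite GSAT_MM. It held 6.66% (6.64 to 6.67) of input repeat reads and 4.71% (4.70 to 4.72) of ChIP repeat reads. Of the input reads of all 5 rows, 97.1% belonged to it. No source used here says how reads that match several repeat types were assigned, so these reads are counted as the authors assigned them, and reads from other L1-derived copies cannot be told apart from reads of MusHAL1 copies.

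The other 4 rows together held 0.199% (0.196 to 0.202) of input repeat reads and 0.159% (0.157 to 0.162) of ChIP repeat reads. HAL1 had 4996 and 4991 input reads and 5393 and 5440 ChIP reads in lanes 1 and 2. HAL1-3A_ME had 2157 and 2086 input reads and 2389 and 2425 ChIP reads. The next row, HAL1-2a_MD, had 1072 and 1051 input reads and 1313 and 1187 ChIP reads. HAL1b was the smallest, with 619 and 623 input reads and 673 and 676 ChIP reads. MusHAL1 thus had 59.0 times the input reads of HAL1 and 33.5 times those of the 4 rows pooled, and its ratio is known far more closely than theirs.

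**Figure D1:**
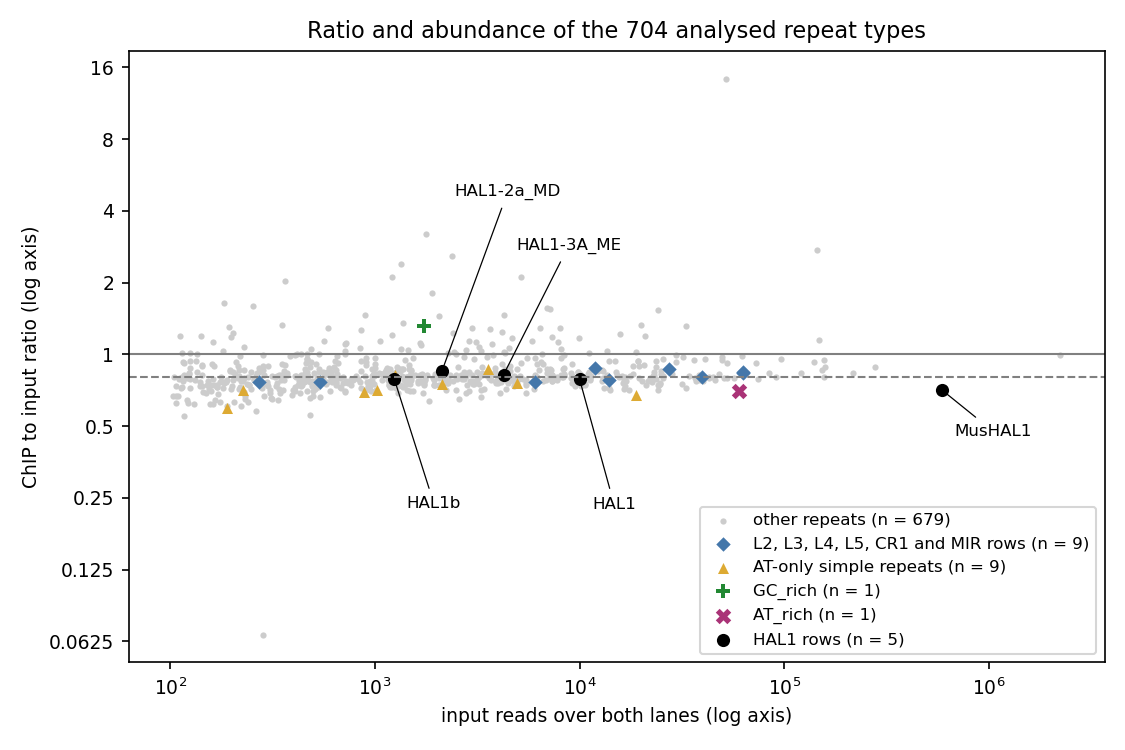
Each point is 1 of the 704 repeat types with at least 100 input reads, with input reads over both lanes on the horizontal log axis and the ChIP to input ratio on the vertical log axis. The solid line is a ratio of 1 and the dashed line is the median repeat at 0.805. MusHAL1 lies at the abundant end and below the dashed line, at 0.708, near AT_rich at 0.699, while the other 4 HAL1 rows lie in the bulk of the repeats.

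MusHAL1 was under-represented in the H3.3S31ph ChIP, with a ratio of 0.708 (0.705 to 0.710). Its ratio was 0.708 in lane 1 and 0.707 in lane 2. Relative to the median repeat it stood at 0.879 (0.876 to 0.883), which is 12.1% lower. Since it holds so many reads it takes part in its own scale: against all other repeats together its ratio was 0.693 (0.691 to 0.696).

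Few repeats had a lower ratio. Among the 704 repeats, 65 (9.23%) lay below MusHAL1. With at least 1000 input reads, 16 of 406 (3.94%) did. With at least 10000 input reads, a minimum chosen after the values were seen, 4 of 130 did: (TA)n at 0.679, AT_rich at 0.699, RLTR22_Mur, an LTR row, at 0.707 (0.692 to 0.722) and (TAGA)n at 0.708 (0.691 to 0.725). The intervals of the last 2 contain the value of MusHAL1. The 3 other repeats with at least 196501 input reads, the number of MusHAL1 divided by 3, all had higher ratios. They were the short interspersed elements B4A at 0.839 and B3 at 0.887, and GSAT_MM, the pericentromeric satellite, at 0.997. MusHAL1 had 0.844 (0.838 to 0.850) times the ratio of B4A, 0.798 (0.793 to 0.803) times that of B3 and 0.710 (0.707 to 0.713) times that of GSAT_MM. These quotients of 2 ratios do not depend on the scale between the libraries.

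The other HAL1 rows were at the level of the bulk of repeats. HAL1 had a ratio of 0.785 (0.764 to 0.807), HAL1b one of 0.786 (0.727 to 0.850), HAL1-3A_ME one of 0.821 (0.788 to 0.856) and HAL1-2a_MD one of 0.852 (0.804 to 0.904). Their pooled reads gave 0.802 (0.786 to 0.819), which is 0.997 times the median repeat. Relative to that median, HAL1 stood at 0.976 (0.949 to 1.003), HAL1b at 0.977 (0.904 to 1.06), HAL1-3A_ME at 1.02 (0.979 to 1.06) and HAL1-2a_MD at 1.06 (0.999 to 1.12). All 4 intervals contain 1.

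Read by counts, all 5 HAL1 rows had an interval below a ratio of 1, where 79.5% of all 704 repeats did, so this count is near the background. Their median ratio was 0.786, beside 0.805 for all repeats. An interval below the median repeat was found for 1 of the 5, MusHAL1, where 19.2% of all repeats had one. A ratio of 0.8 or lower was found for 3 of the 5, MusHAL1, HAL1 and HAL1b, where 47.4% of all repeats had one. None of the 5 had an interval above 1 or above the median repeat, against 7.81% and 27.3% of all repeats.

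**Figure D2:**
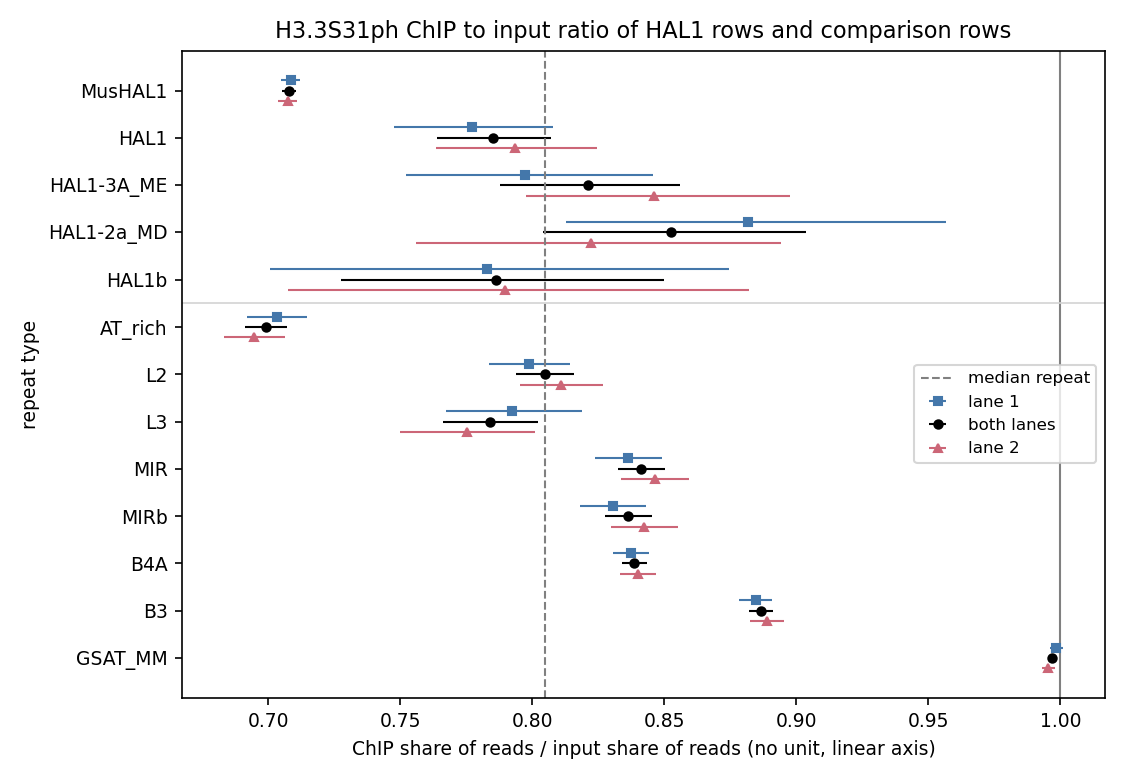
ChIP to input ratio on a linear axis for the 5 HAL1 rows (above the grey line) and for 8 comparison rows, by lane and over both lanes, with bars for the 95% interval of counting error. The solid line is a ratio of 1 and the dashed line the median repeat. MusHAL1 and AT_rich lie near 0.70 in both lanes, and the bars of the other 4 HAL1 rows over both lanes cross the dashed line.

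Set against each of the other HAL1 rows, MusHAL1 was lower in all 4 pairs. Its ratio was 0.901 (0.877 to 0.927) times that of HAL1, 0.900 (0.833 to 0.973) times that of HAL1b, 0.862 (0.827 to 0.898) times that of HAL1-3A_ME and 0.830 (0.784 to 0.880) times that of HAL1-2a_MD. Against their pooled reads it was 0.883 (0.864 to 0.901), with 0.891 in lane 1 and 0.874 in lane 2. In single lanes the intervals stayed below 1 for all pairs except HAL1b in lane 1, where it was 0.811 to 1.01. The gap between MusHAL1 and the pooled rows was larger than counting error in each lane.

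Among the other HAL1 rows, 1 of 6 pairs had an interval that excluded 1. HAL1 had 0.921 (0.864 to 0.982) times the ratio of HAL1-2a_MD, but this was 0.881 (0.806 to 0.964) in lane 1 and 0.965 (0.881 to 1.06) in lane 2. HAL1 and HAL1b could not be told apart at this depth, at 0.999 (0.920 to 1.08). These 10 pairs were compared without adjustment of their intervals for their number. By lane, HAL1-2a_MD had a ratio of 0.882 in lane 1 and 0.822 in lane 2, HAL1-3A_ME had 0.797 and 0.846, HAL1 had 0.777 and 0.793, and HAL1b had 0.783 and 0.790. HAL1 and HAL1b were below HAL1-3A_ME and HAL1-2a_MD in both lanes, but the order within each of these couples changed: HAL1-2a_MD was the highest in lane 1 and HAL1-3A_ME in lane 2.

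AT_rich collects low-complexity sequence rich in A and T, and MusHAL1 had nearly the same ratio. This closeness was not particular to AT_rich, as RLTR22_Mur at 0.707 and (TAGA)n at 0.708 lay nearer still. AT_rich had 30787 and 28943 input reads and 30070 and 27622 ChIP reads in lanes 1 and 2, and a ratio of 0.699 (0.691 to 0.707). MusHAL1 had 1.01 (1.0003 to 1.02) times the ratio of AT_rich over both lanes. The interval was 0.991 to 1.02 in lane 1 and 1.001 to 1.04 in lane 2. The interval over both lanes excludes 1 by a small margin and that of lane 1 contains it. The other HAL1 rows were above AT_rich in all 4 pairs, at 1.12 (1.09 to 1.16) times its ratio for HAL1, 1.12 (1.04 to 1.22) for HAL1b, 1.17 (1.13 to 1.23) for HAL1-3A_ME and 1.22 (1.15 to 1.29) for HAL1-2a_MD. Most repeats were above AT_rich too: 49 of the 704 (6.96%) had a lower ratio than it. For HAL1b the interval of lane 1 contained 1, at 0.997 to 1.24.

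Simple repeats with units of only A and T gave a further reference of known base content. Their 9 rows had ratios from 0.597 for (TTAAA)n to 0.867 for (A)n, with a median of 0.712 and a pooled ratio of 0.722. MusHAL1 lay inside this range, at 0.980 (0.965 to 0.995) times the pooled ratio. In that pool (TA)n alone held 18763 of the 32974 input reads. Of the 9 rows, MusHAL1 was below 4, (A)n, (TAA)n, (TAAA)n and (TAAAA)n, above 1, (TA)n at 0.679 (0.665 to 0.693), and not separable from the other 4. How many of all repeats were separable from MusHAL1 in this way was not counted. GC_rich, the counterpart of AT_rich, had a ratio of 1.31 (1.24 to 1.40), and MusHAL1 had 0.538 (0.508 to 0.571) times that. The base content of the reads in the HAL1 rows was not tested, since no sequence of these families was used here.

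**Figure D3:**
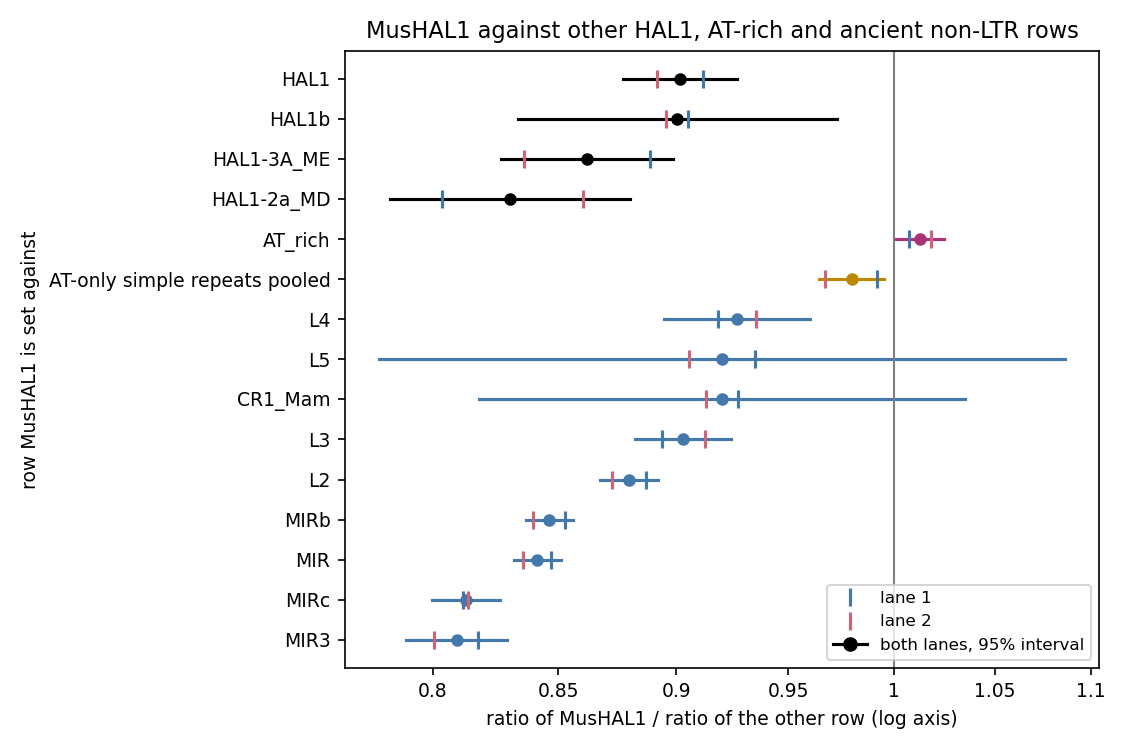
Quotient of the ratio of MusHAL1 and the ratio of another row, on a log axis. Points and bars are both lanes with the 95% interval of counting error, and ticks are single lanes. MusHAL1 lies left of 1 against the 4 other HAL1 rows and against the L2, L3, L4 and MIR rows, and close to 1 against AT_rich and the pooled AT-only repeats. Most of all repeats had a higher ratio than MusHAL1.

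Non-LTR rows also include rodent short interspersed elements, such as B4A and B3 above, which are not in the next set. That set holds ancient mammalian elements. They are the LINE rows L2, L3, L4, L5 and CR1_Mam and the MIR rows, which are short elements copied by the L2 machinery. Their 9 rows with at least 100 input reads had ratios from 0.764 for L4 to 0.875 for MIR3, with a median of 0.805. One more row, ALINE, had 85 input reads and was below the minimum. MusHAL1 was below all 9, with intervals that excluded 1 for 7 and included 1 for L5 and CR1_Mam, which had 271 and 541 input reads. It had 0.880 (0.867 to 0.892) times the ratio of L2, 0.903 (0.882 to 0.924) times that of L3 and 0.841 (0.832 to 0.851) times that of MIR. Against the pooled reads of the 9 rows it stood at 0.850 (0.844 to 0.855).

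The other HAL1 rows were close to these ancient elements, though slightly lower when pooled. HAL1, at 0.785, lay beside L3 at 0.784 (0.766 to 0.802), and HAL1-3A_ME and HAL1-2a_MD lay between L2 at 0.805 and MIRc at 0.871. Pooled, the 4 rows had 0.963 (0.943 to 0.983) times the pooled ratio of the ancient rows, in which the MIR rows hold most reads. This interval excludes 1, as did those of lane 1, at 0.931 to 0.988, and of lane 2, at 0.939 to 0.997.

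The split of reads between the lanes gave a measure apart from the ChIP. AT_rich held a larger share of reads in lane 1 than in lane 2, by 1.06 times (1.04 to 1.08) in the ChIP and 1.05 times (1.03 to 1.06) in the input. The pooled AT-only repeats did so by 1.08 (1.06 to 1.11) and 1.11 (1.09 to 1.13), and of their 9 rows 3 in the ChIP and 4 in the input had an interval above 1. MusHAL1 did not share this: its lane quotient was 1.000 (0.994 to 1.005) in the ChIP and 0.998 (0.993 to 1.003) in the input. The intervals of the other 4 HAL1 rows contained 1 in both libraries, but those of the smaller rows were wide. In the ChIP, HAL1-2a_MD stood at 1.08 (0.993 to 1.16) and HAL1b at 0.968 (0.868 to 1.08). Both of these intervals also contain the value of AT_rich. How many of all repeats had an interval containing 1, or above 1, was not counted. A lane quotient near 1 was not particular to MusHAL1. In the ChIP and the input it was 1.000 and 0.997 for GSAT_MM, 1.000 and 1.003 for B4A, and 1.004 and 1.009 for B3. The pooled ancient non-LTR rows had 0.992 (0.984 to 0.9998) and 1.001 (0.993 to 1.009). MusHAL1 thus lay beside AT_rich in the ChIP to input ratio, while its lane balance was like that of these other rows. The AT-only rows differed among themselves, though 0 had an interval below 1. (TA)n, with 18763 input reads, had 1.12 in the ChIP and 1.13 in the input, and (A)n had 0.945 (0.890 to 1.004) and 1.04 (0.977 to 1.11). Whether lane balance goes with base content was not tested.

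**Figure D4:**
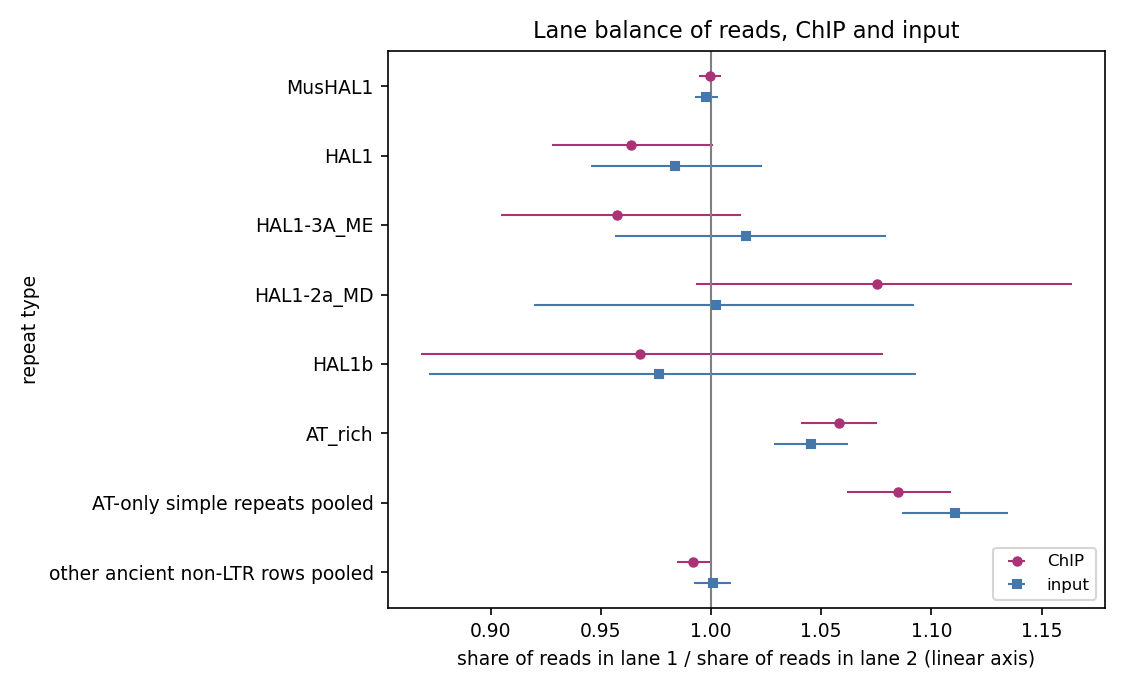
Share of a library's repeat reads in lane 1 over the share in lane 2, on a linear axis, for ChIP and input, with 95% intervals of counting error. MusHAL1 lies at 1.000 and 0.998 and the pooled ancient non-LTR rows at 0.992 and 1.001, whereas AT_rich and the pooled AT-only repeats lie above 1 in both libraries.

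The authors' deposited table gives log2 ratios on another scale, with the authors' own bounds. There MusHAL1 had -0.33 in both lanes, and AT_rich had -0.34 and -0.36. In the authors' deposited table HAL1 had -0.20 and -0.17, HAL1b -0.18 and -0.17, and HAL1-3A_ME -0.16 and -0.073. HAL1-2a_MD had -0.013 in lane 1 in the authors' deposited table, with bounds of -0.11 and 0.085 that contain 0, and -0.11 in lane 2. All other HAL1 values there had both bounds below 0. Values below 0 were common on that scale. With lanes summed and the intervals used here, 392 of 704 repeats had an interval below a ratio of 1 on it, and the median of all repeats was 0.905.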

How the data were processed

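Per the submitters' processing notes, Bowtie 1.0.0 and the build mm9 were used. The assignment of reads to repeat types, the treatment of multiple matches and any removal of duplicates are not given in the sources used here. For each of 2 lanes the authors deposited raw counts of reads by repeat type, with their own log2 ratios of ChIP to input. Those log2 values can be rebuilt from the counts plus 0.5 and 1 constant per lane, to within 0.00053. Rows are repeat types, so no coordinates were used.

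Depth was 6204712 and 6030765 ChIP reads and 4467116 and 4389635 input reads in lanes 1 and 2, which were summed. Ratios on table totals and shares have 95% exact (Clopper-Pearson) intervals. The quotient of 2 ratios has a 95% Wald interval on the log scale. Intervals of ratios and quotients, but not of shares, were tested on simulated counts with counting error only and a known scale. Intervals cover counting error only, as each group had 1 sample. Reads carry no molecular identifiers and any removal of duplicates is not given, so copies of 1 fragment may have been counted as separate reads. The intervals may then be too narrow even for counting error. With 1 sample a group no test between conditions was possible. Python 3.11.15 and scipy 1.17.1 were used.

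Named were all HAL1 rows, AT_rich, GC_rich, AT-only simple repeats, ancient non-LTR rows and rows with 196501 input reads or more. RLTR22_Mur and (TAGA)n were named after their values were seen. The members and lists were chosen with earlier results of these data known. Alternatives were single lanes, 6 other scales, other read minimums, a 90% interval and 1 read added.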

Additional observations from a re-analysis of the deposited data

How the results depend on the processing

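The scale between the libraries moved every ratio by 1 factor and moved no quotient of 2 rows. The ratio of MusHAL1 stayed below 1 on every scale tried: 0.879 when the median repeat was the unit, 0.898 when old repeats were, 0.795 on the deposited scale, 0.675 without the 5 most abundant repeats by input reads, 0.815 without the 5 most abundant by ChIP reads and 0.693 without the MusHAL1 row. The last 2 were chosen after seeing the data. Directions against input changed for HAL1-3A_ME and HAL1-2a_MD, to 1.02 and 1.06 with the median repeat set to 1 and to 1.04 and 1.08 with old repeats set to 1. With old repeats set to 1, median ratios became 1.02 for the other HAL1 rows, 1.02 for the ancient non-LTR rows and 1.02 for all repeats. HAL1 rows with an interval below 1 went from 5 to 1 with the median repeat or old repeats set to 1. Over all 704 repeats this count went from 560 to 135 and to 79, so it moved with the scale. HAL1 rows with a ratio of 0.8 or lower went from 3 to 0 when the median repeat or old repeats were the unit. They also went to 0 without the 5 most abundant by ChIP reads, and to 1 on the deposited scale. Over all 704 repeats the count went from 334 to 17, 13, 46 and 75 in the same order. HAL1 rows below the median repeat went from 1 to 2 with at least 1000 input reads and with a 90% interval, the added row being HAL1. Over all repeats this count went from 135 of 704 to 127 of 406 and to 161 of 704. MusHAL1 against AT_rich was 1.007 in lane 1 and 1.02 in lane 2, and against the other HAL1 rows 0.891 and 0.874. No paired analysis was possible because there was 1 sample a group. Depth limits the 4 smaller HAL1 rows, above all HAL1b with 1242 input reads.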
